A study of Mus musculus with 6 samples.

Results

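Methylated CpG-dense regions are stretches of the genome that are as rich in CpGs as CpG islands and yet carry methylation at most of those CpGs. They were examined in mouse colon epithelium. They were chosen with measured values: an autosomal region had to have calls in all 6 samples, 10 to 29 CpGs, at least 6 CpGs per 100 bases, and a mean level of at least 70% over the 2 control samples. Of 179922 regions with calls in all 6 samples, 1499 met the rule (0.833%), and they made up 9.02% of the 16621 autosomal regions that met its limits on CpG count and density. Another 13894 of those dense regions had a control level under 10% and served as unmethylated counterparts, and 1228 lay between 10 and 70%.

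A CpG island is a short run of DNA that has kept its CpGs, which elsewhere are lost over evolution because methylated cytosine mutates easily. Most islands lie at promoters and are unmethylated in normal tissue, while methylated ones are found within gene bodies, at promoters of germline genes, in repeats and on silenced alleles. DNA methyltransferase 1 copies the methylation of a CpG to the new strand at each cell division. In colon tumors, islands can gain methylation while other parts of the genome lose it.

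The 6 samples came from the colon of C57BL/6 mice, an inbred laboratory strain, at 18 weeks of age, with 2 samples in each of 3 groups. The first group had been given azoxymethane (AOM), a colon carcinogen, and dextran sulfate sodium (DSS), which inflames the colon, together with curcumin, a polyphenol of turmeric. The second had AOM and DSS alone, and the third was the control. Tumors and the proximal segment were taken out, per the labels' protocol, first, and the remaining epithelium was then collected by scraping, which is what the values describe. No allele is named for any group, the sources used here give no doses, and nothing says whether the samples of a group are from separate mice. The p-values therefore reflect only how much these samples varied, which may be technical.

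Bisulfite sequencing of captured DNA gave each region its count of methylation calls, summed over its CpGs as far as the values show, and its count of methylated calls. The level of a region is the methylated share in percent. The 1499 regions held 25526 CpGs in all and had a median length of 225 bases. In the median they had 137 to 141 calls in the curcumin samples, 155 to 158 in the AOM/DSS samples and 126 to 158 in the control samples, and no value rested on fewer than 20 calls. The median was 8.62 calls per CpG in the methylated CpG-dense regions and 9.48 in the unmethylated ones. Over all regions the samples held 24682973 to 30727568 calls. Intervals from calls alone were not drawn, since calls of one read are not independent. Coordinates are those of the files in build mm9. No mm9 genome or gene annotation was used, so regions were not tied to genes and the labelled cell type was not checked against marker genes.

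Most dense regions were nearly unmethylated, and most of those over the limit of 70% stood well above it. In the control samples, 518 dense regions stood at 95% or more, 482 at 90 to 95%, 335 at 80 to 90%, 88 at 75 to 80% and 76 at 70 to 75%. Just below the limit, 66 stood at 65 to 70%. The share with a control level of 70% or more among autosomal regions of 10 to 29 CpGs was 25.6% at 2 to 4 CpGs per 100 bases, 17.6% at 4 to 6, 11.4% at 6 to 7, 9.72% at 7 to 8, 7.42% at 8 to 10, 4.41% at 10 to 15 and 1.94% above 15. The denser a region was, the less often it was methylated. These counts describe the values the rule used.

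The limits of the rule cut through neighbouring values. The members just inside the level limit were a region on chromosome 11 from 45793343 to 45793705, with a control mean of 70.002%, and one on the same chromosome from 59289326 to 59289554, with 70.2%. Just outside lay 2 regions on chromosome 8, from 87447625 to 87447834 with 69.8% and from 127448416 to 127448560 with 69.9%, whose control samples stood at 51.9% and 88% in the second case. At the density limit, members on chromosome 11 (from 18907786 to 18907985) and chromosome 15 (from 76009742 to 76010141) had exactly 6 CpGs per 100 bases, and regions on chromosome 4 (from 137074486 to 137074802) and chromosome 5 (from 143203818 to 143204134) had 5.99.

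**Figure D1:**
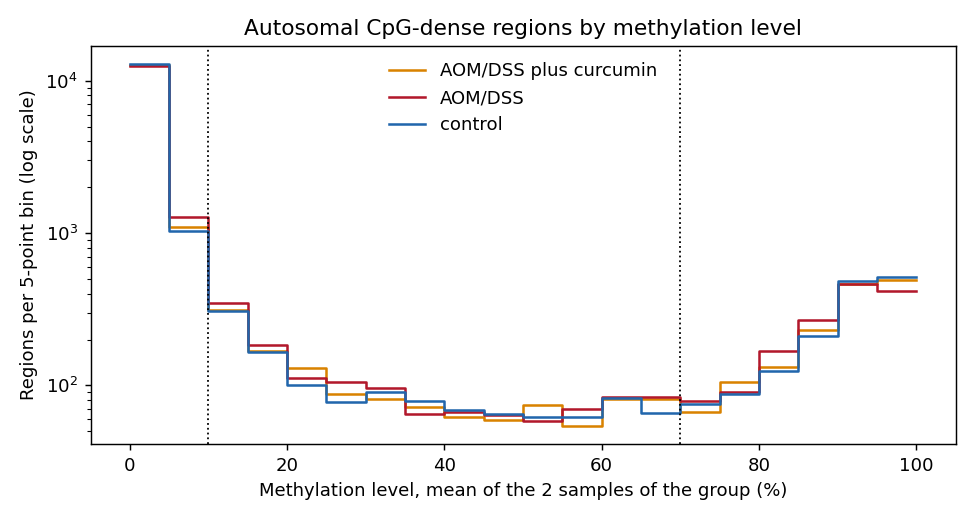
Number of autosomal CpG-dense regions (10 to 29 CpGs, at least 6 per 100 bases) by methylation level, the mean of the 2 samples of a group in percent, in bins of 5 points on a log scale, with dotted lines at 10 and 70%. At 95% and over there were 491 regions in AOM/DSS plus curcumin, 415 in AOM/DSS and 518 in control, and at 80 to 85% there were 133, 169 and 124.

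The samples that had no part in choosing the regions gave the same high levels. Of the 1499 regions, 1371 (91.5%) stood at 70% or more in all 4 samples that had received AOM and DSS. The median level was 92.9% and 92.6% in the curcumin samples, 92.04% and 91.9% in the AOM/DSS samples, and 93.05% and 92.97% in the control samples. The lowest value was 40.5% in a curcumin sample and 39.2% in an AOM/DSS sample, and no region fell under 30% in any sample. A level under 70% in both samples of a group was seen in 16 regions with curcumin and in 29 in AOM/DSS, and 8 regions were among both. Of these 29 regions, 3 had a control mean of 80% or more, and of the 16 none did, so most had been near the limit in control.

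Neighbours were taken from the 179922 captured regions with calls in all 6 samples, out of 209687. A region without a neighbour may therefore lie near a captured region that lacked calls in some sample. Neighbours of methylated regions include other members, whose control level the rule sets at 70% or more. Those of unmethylated regions include other unmethylated ones. Another such region lay within 1000 bases of 819 methylated CpG-dense regions (54.6%), against 13500 of the unmethylated ones (97.2%). Among those with such a neighbour, 572 methylated regions (69.8%) had only neighbours at 70% or more in control, against 57 unmethylated ones (0.422%). At least 1 neighbour under 10% stood beside 66 methylated regions (8.06%) and 12854 unmethylated ones (95.2%). Within 250 bases, neighbours of methylated regions averaged 84.3% in control and neighbours of unmethylated ones 5.46%. Without the members, the 485 neighbouring regions within 250 bases averaged 81.3% in control, and the 1058 within 1000 bases averaged 72.5%. The gap narrowed with distance: at 2000 to 5000 bases the neighbours averaged 46.6% and 34.8%. What share of reads covers a region and its neighbour together was not measured.

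**Figure D2:**
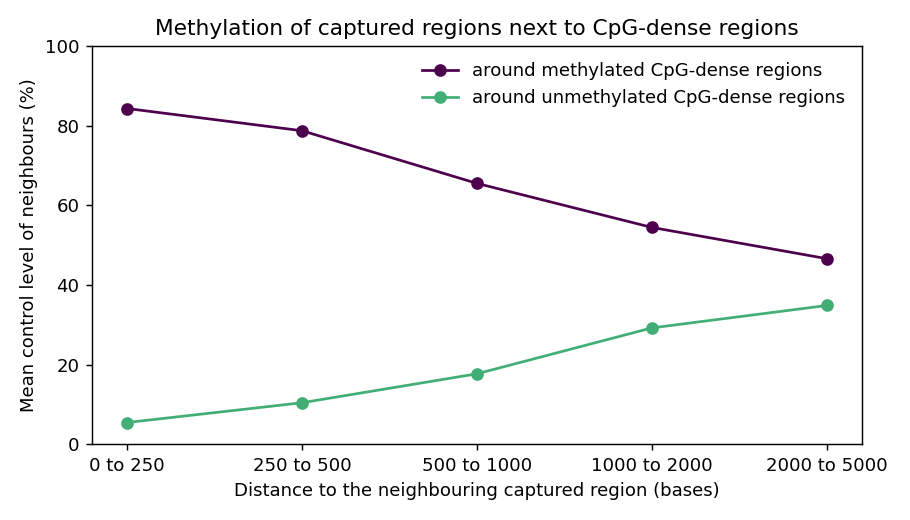
Mean control level, in percent, of the captured regions that neighbour a methylated (purple) or unmethylated (green) CpG-dense region, by distance in bases. The neighbours are regions with calls in all 6 samples and include regions of the same class. Around methylated regions the points run from 84.3% within 250 bases to 46.6% at 2000 to 5000 bases, and around unmethylated regions from 5.46% to 34.8%.

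Most methylated CpG-dense regions were not joined to another member, and a region in between that was not a member ended a run. Still, 699 had a captured neighbour, member or not, at 70% or more in control within 1000 bases. When consecutive regions within 1000 bases were joined, 1297 members had no other member beside them, 82 runs held 2 members, 10 held 3 and 2 held 4. The longest run lay on chromosome 12 from 109153510 to 109155503, with 4 members and 81 CpGs. It averaged 97.6% and 99.2% in the curcumin samples, 98.7% and 98.07% in the AOM/DSS samples, and 98.6% and 98.02% in the control samples. The other run of 4, on chromosome 7 from 4982095 to 4983655, averaged 98.3% and 93.7% in the curcumin samples, 97.5% and 96.6% in the AOM/DSS samples, and 97.6% and 97.8% in the control samples. The samples of the chromosome 12 run overlapped between all groups. In the chromosome 7 run the curcumin samples spanned both other groups, and both AOM/DSS samples lay just below both controls. Of the 3 next longest runs, each with 3 members, the one on chromosome 6 from 48387928 to 48389143, with 80 CpGs, averaged 95.1% ± 1.01 in AOM/DSS plus curcumin, 94.98% ± 0.882 in AOM/DSS. It averaged 92.6% ± 1.95 in control (SD, n = 2 in each group). The run on chromosome 11 from 103672558 to 103674163 averaged 83.4% in AOM/DSS plus curcumin, against 85.98% in AOM/DSS and 82.2% in control. The run on chromosome 17 from 87533205 to 87534496 averaged 90.5% in AOM/DSS plus curcumin, against 87.5% in AOM/DSS and 88.4% in control.

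By chromosome, members made up between 4.97% of the dense regions (chromosome 19, 30 of 604) and 11.8% (chromosome 8, 117 of 992). Chromosome 7 held the most, 137.

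The comparison of AOM/DSS plus curcumin with AOM/DSS addresses what curcumin changes in mice given AOM and DSS, and neither group had a part in choosing the regions. Methylated CpG-dense regions had a slightly higher mean in each curcumin sample than in either AOM/DSS sample, by less than 1 percentage point between groups, and none of them passed the test on its own. No test was made of the mean, since the regions were selected. The mean level over the 1499 regions was 90.4% and 89.9% in the curcumin samples, against 89.3% and 89.4% in the AOM/DSS samples. The difference of group means was 0.796 points, with 90.2% ± 0.401 in AOM/DSS plus curcumin and 89.4% ± 0.0731 in AOM/DSS (SD, n = 2 each). It was 0.513 points without curcumin replicate 0 and 1.08 points without curcumin replicate 1. The median difference was 0.698 points in these regions and 0.111 points over all 179922 regions. The mean difference over all 179922 regions was 0.482 points, also without overlap between the groups.

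The unmethylated counterparts differed in the other direction and by less. Weighted to the CpG counts and densities of the methylated regions, they averaged 2.17% and 2.18% in the curcumin samples, against 2.28% and 2.39% in the AOM/DSS samples. The difference was -0.155 points, and it was -0.0997 points without AOM/DSS replicate 1. Weighting used classes of equal CpG count and of density in steps of 1 CpG per 100 bases, and 1497 of the 1499 methylated regions had counterparts in their class. The mean absolute difference between the 2 samples of a group was 3.76 points with curcumin, 3.81 points in AOM/DSS and 3.74 points in control for a single methylated region. For a single unmethylated one it was 1.31, 1.32 and 1.29 points.

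Methylated regions with as many CpGs but fewer per 100 bases served as a further comparison. There were 7578 such autosomal regions with 10 to 29 CpGs, a density under 6 and a control level of at least 70%. Weighted to the control levels of the methylated CpG-dense regions in steps of 2 points, they averaged 90.03% and 89.8% in the curcumin samples, against 88.8% and 88.6% in the AOM/DSS samples, a difference of 1.18 points. At a control level of 70 to 80% the difference was 0.8003 points in the 164 dense regions and 1.96 points in the 1791 sparse ones. At 80 to 90% it was 1.06 points in 335 dense and 1.53 points in 2819 sparse regions. At 90% and over it was 0.706 points in 1000 dense and 1.04 points in 2968 sparse regions. In the dense regions at 70 to 80%, the curcumin samples (75.5% and 74.4%) overlapped the AOM/DSS samples (73.8% and 74.5%). The mean difference was thus smaller in dense than in sparse regions in each class, but the pairwise sample differences overlapped between dense and sparse regions at 80 to 90% and at 90% and over. The difference between the classes of regions was not tested.

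**Figure D3:**
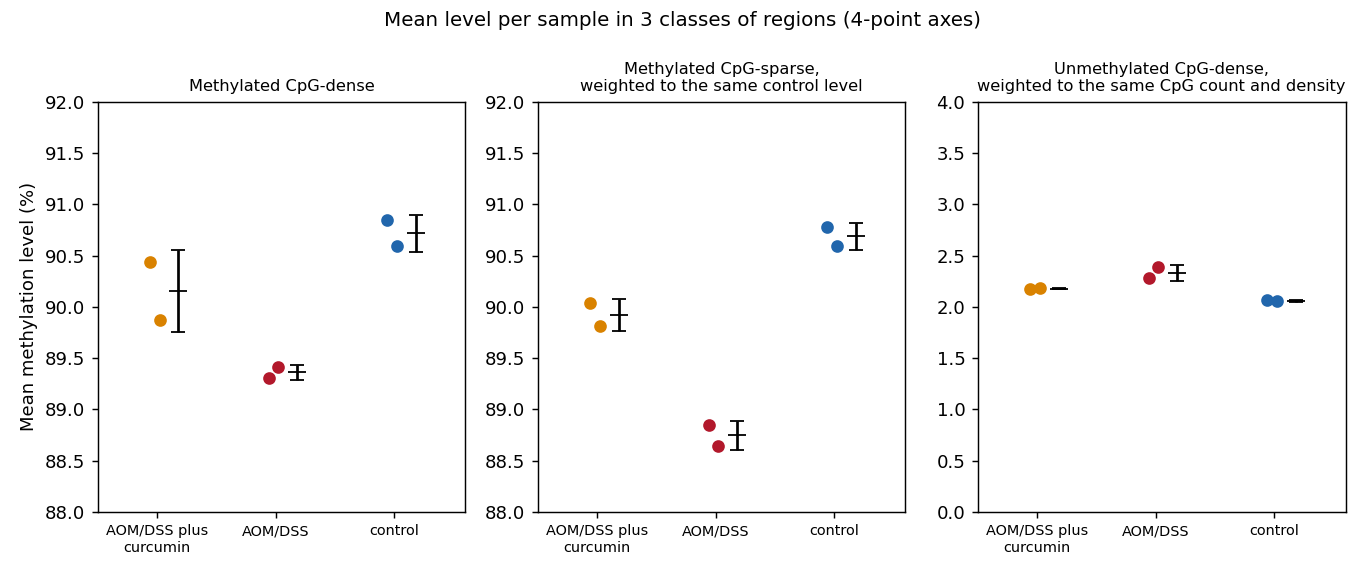
Mean methylation level in percent of each sample (coloured points), with the group mean and SD of 2 samples (black), for methylated CpG-dense regions, methylated CpG-sparse regions and unmethylated CpG-dense regions, on axes that span 4 points each. AOM/DSS is the lowest group among the methylated regions, at 89.4% in the dense and 88.7% in the sparse ones, and the highest among the unmethylated regions, at 2.33%.

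**Figure D4:**
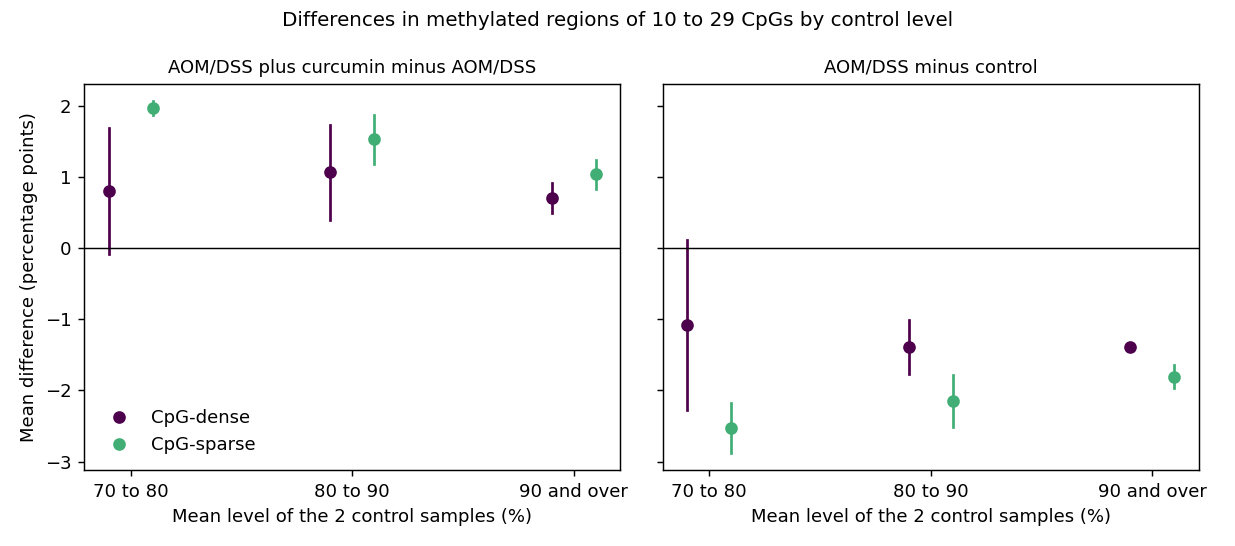
Mean difference in percentage points by class of control level for CpG-dense (purple) and CpG-sparse (green) methylated regions of 10 to 29 CpGs. Points are differences of group means and lines span the 4 differences between single samples. For AOM/DSS plus curcumin minus AOM/DSS the dense regions stand at 0.8003, 1.06 and 0.706 points, and for AOM/DSS minus control at -1.08, -1.39 and -1.39 points.

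In edgeR's quasi-likelihood test with Benjamini-Hochberg adjustment over all 179922 regions, 0 methylated CpG-dense regions were called at an adjusted p under 0.05 with a difference of at least 10 points. The percentage called over all regions was 0. A count of 0 here does not show that the regions did not differ. The smallest adjusted p among the methylated CpG-dense regions was 0.791. Limma called 0 as well, and 22 were called when the calls of each group were summed for a Fisher's exact test, in which samples do not vary. The share of all regions called by Fisher's test is not given here, so nothing is read from the 22. At an unadjusted p under 0.05, 87 of the regions differed, against 5.25% of all regions. With the 10-point minimum, 22 were higher with curcumin (1.47%) and 12 lower (0.801%), against 1.29% and 0.706% of all regions, which is near the background in both directions. The 2 groups did not overlap in 347 regions that were higher with curcumin (23.1%) and in 180 that were lower (12.0%), against 18.9% and 16% of all regions. In all, 896 regions (59.8%) had a positive difference and 603 a negative one, against 51.9% and 47.7% of all regions.

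By chromosome, the mean of these regions was higher with curcumin on 18 of 19 autosomes, and on 12 of them the groups did not overlap. Chromosome 11 was the exception, at -0.0197 points over 112 regions. All autosomes were measured in the same samples, so the number of autosomes is not a number of replicates. The mean over all 179922 regions was also higher with curcumin, by 0.482 points, and its values by autosome are not given here. Regions with at least 10 CpGs per 100 bases, 100 in number, differed by 0.223 points with overlapping groups. They stood at 90.4% and 89.2% in the curcumin samples and at 89.5% and 89.7% in the AOM/DSS samples. The 280 regions with a density of 8 to 10 differed by 1.003 points and the 1119 regions with a density of 6 to 8 by 0.796 points. By CpG count the difference was 0.864 points at 10 to 14 CpGs, 0.751 points at 15 to 19 and 0.752 points at 20 to 29. The 66 regions beside an unmethylated neighbour differed by 0.209 points with overlapping groups. The 753 regions whose neighbours all stood at 10% or more differed by 0.772 points, and the 680 regions without a neighbour by 0.880 points.

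Regions next to the members differed in the same direction. The 485 captured regions that lay within 250 bases of a member without meeting the rule averaged 81.4% and 80.7% in the curcumin samples, 80.3% and 79.9% in the AOM/DSS samples, and 81.6% and 81.1% in the control samples. The curcumin and AOM/DSS samples did not overlap, and their means differed by 0.975 points.

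The regions with the smallest unadjusted p among those whose groups did not overlap, 10 in each direction, are given here although none passed, with edgeR adjusted p from 0.791 to 0.928. First among those higher with curcumin was a region on chromosome 11 from 118752543 to 118752834 with 21 CpGs and 201 to 341 calls per sample. It stood at 94.5% and 95.7% in the curcumin samples, 84.2% and 88.3% in the AOM/DSS samples, and 95.8% and 94.02% in the control samples, 8.88 points higher with curcumin than in AOM/DSS (edgeR unadjusted p = 0.000815, adjusted p = 0.791). The curcumin and control samples overlapped and the AOM/DSS samples lay below both. In every region listed, the naming rule itself sets on which side of the curcumin samples the AOM/DSS samples lie.

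On chromosome 8 a stretch of 15 CpGs from 70039438 to 70039555 stood at 100% and 97.2% in the curcumin samples, 81.7% and 87.5% in the AOM/DSS samples, and 95% and 95.7% in the control samples. It was among the densest, at 12.7 CpGs per 100 bases, and rested on only 40 to 93 calls. On chromosome 7 a stretch of 18 CpGs from 87507966 to 87508181 was fully methylated in both curcumin samples, at 100%, and stood at 91.8% and 93.3% in the AOM/DSS samples and at 93.8% and 98.9% in the control samples. On chromosome 13 the region from 47106179 to 47106464, with 20 CpGs, stood at 97.9% and 97.4% in the curcumin samples, 89.5% and 89.6% in the AOM/DSS samples, and 95.2% and 92% in the control samples. In all 3 the AOM/DSS samples were the lowest, of which the naming rule sets their place below curcumin.

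Among these 10, the largest differences were in regions whose AOM/DSS samples were far apart. On chromosome 2 the region from 154179890 to 154180037, with 10 CpGs, stood at 100% and 96.0% in the curcumin samples, 74.2% and 91.1% in the AOM/DSS samples, and 94.7% and 100% in the control samples. On chromosome 6 the region from 146401063 to 146401269, with 13 CpGs, stood at 84.2% and 91.5% in the curcumin samples, 79.1% and 67.2% in the AOM/DSS samples, and 90.7% and 86.9% in the control samples. On chromosome 9 the region from 21823042 to 21823346, with 19 CpGs, stood at 91.6% and 92.1% in the curcumin samples, 71.4% and 83.3% in the AOM/DSS samples, and 88.03% and 90.9% in the control samples. One AOM/DSS sample was well below the other in each, and it was replicate 0 on chromosomes 2 and 9 and replicate 1 on chromosome 6.

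The remaining 3 of the 10 differed by 4.47 points on chromosome 10 from 76077098 to 76077512, by 8.03 points on chromosome 17 from 33605365 to 33605564 and by 5.01 points on chromosome 4 from 45896360 to 45896611. The chromosome 4 region had the most calls of the 20, from 1013 to 1325 per sample. It stood at 95.1% and 94.3% in the curcumin samples, 93.1% and 86.3% in the AOM/DSS samples, and 92.5% and 93.9% in the control samples, so that AOM/DSS replicate 0 lay among the controls.

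Among regions lower with curcumin, the first was on chromosome 13 from 65552460 to 65552701, with 15 CpGs and 330 to 386 calls. It stood at 58.9% and 68.1% in the curcumin samples, 82.6% and 78.3% in the AOM/DSS samples, and 71.8% and 71.99% in the control samples, 16.9 points lower with curcumin than in AOM/DSS (edgeR unadjusted p = 0.00134, adjusted p = 0.838). The controls lay between the other groups, and the region was close to the lower limit of the rule. On chromosome 11 the region from 9050222 to 9050648, with 28 CpGs and 589 to 741 calls, stood at 78.8% and 75.6% in the curcumin samples, 87.1% and 86.1% in the AOM/DSS samples, and 79.1% and 83.1% in the control samples. On the same chromosome the region from 117623703 to 117623820, with 12 CpGs, stood at 72.8% and 71.7% in the curcumin samples, 90.9% and 84.6% in the AOM/DSS samples, and 74.2% and 85.4% in the control samples. In these 3 regions the AOM/DSS samples were highest, though the controls overlapped them in the last. Their place above the curcumin samples is set by the naming rule. The other 7 differed by -14.4 to -2.68 points. Among them, the chromosome 9 region from 66068426 had both AOM/DSS samples (96.1% each) below both controls (96.8% and 97.2%). In the rest the AOM/DSS mean was the highest. A control sample still lay above both AOM/DSS samples on chromosome 8 from 108233380 and on chromosome 10 from 82417311.

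**Figure D5:**
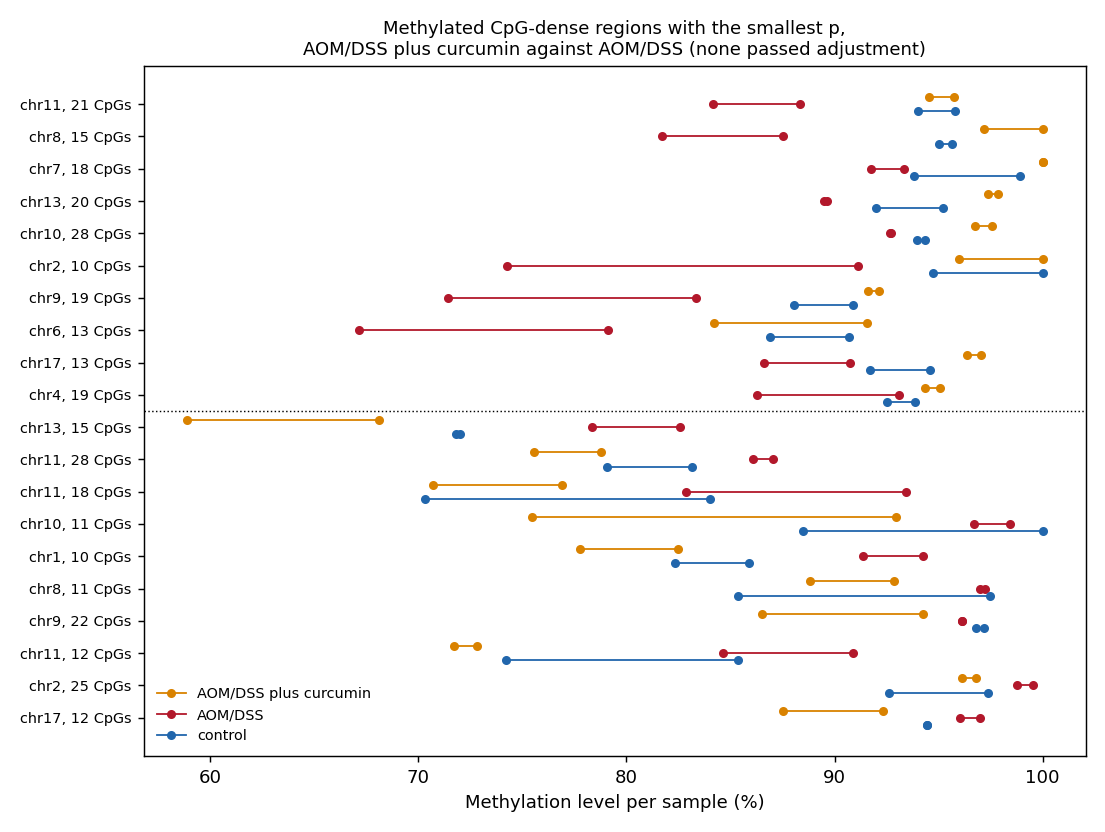
Methylation level per sample, in percent, of the 10 regions higher (above the dotted line) and the 10 lower with curcumin that had the smallest unadjusted p; each pair of joined points is the 2 samples of a group. None passed adjustment, and in the first region of the plot the AOM/DSS samples (84.2% and 88.3%) lie below the curcumin and control samples.

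The comparison of AOM/DSS with control addresses how epithelium changes under AOM and DSS. Since the control samples chose the regions, its values are a description with no test. The mean over the 1499 regions was 89.3% and 89.4% in the AOM/DSS samples, against 90.8% and 90.6% in the control samples, with group means of 89.4% ± 0.0731 in AOM/DSS, against 90.7% ± 0.1796 in control (SD, n = 2 each). The difference was -1.35 points, against -0.899 points over all 179922 regions, where the groups did not overlap either. To take the choice partly apart from the measurement, regions were chosen with 1 control sample and set against the other. This takes out only what is particular to 1 control sample. Whatever the 2 control samples share still enters the choice. Chosen with control replicate 0, 1513 regions averaged 89.05% in AOM/DSS and 90.04% in control replicate 1, a difference of -0.985 points. Chosen with control replicate 1, 1496 regions averaged 89.2% in AOM/DSS and 90.5% in control replicate 0, a difference of -1.34 points. In each case the control sample measured stood above both AOM/DSS samples.

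In the sparse methylated regions the same procedure gave -1.47 and -2.01 points. In the unmethylated dense regions it gave 0.201 and 0.174 points. With all samples, the weighted unmethylated counterparts stood at 2.28% and 2.39% in the AOM/DSS samples, against 2.06% and 2.05% in the control samples, a difference of 0.274 points. Methylated and unmethylated dense regions differed in opposite directions between AOM/DSS and control, each without overlap between the groups. AOM/DSS plus curcumin also differed from control in opposite directions, by -0.558 points and, in the weighted counterparts, 0.120 points. Control levels chose both classes, high in one and low in the other, so nothing is read from the opposite directions. In both AOM/DSS samples, 88 unmethylated regions stood at 10% or more, and 60 did so in both curcumin samples. The rule on control levels lets none do so in both control samples.

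Of the 1499 regions, edgeR called 0 between AOM/DSS and control, while 0.00389% of all regions were called, and 113 had an unadjusted p under 0.05, against 6.34% of all regions. Limma called 0, and Fisher's test on calls summed by group 36. The share of all regions called by Fisher's test is not given here. With the 10-point minimum, 11 regions were higher (0.723% of all regions were) and 39 lower in AOM/DSS (2.1% of all regions were). The groups did not overlap in 147 that were higher and 405 that were lower in AOM/DSS, against 14.8% and 20.8% of all regions. The difference was positive in 536 and negative in 963, against 45.3% and 54.3% of all regions. Nothing is read from these counts, since the control samples entered the rule. On 19 of 19 autosomes the mean difference was negative, from -2.05 points on chromosome 15 to -0.778 on chromosome 8, and the groups overlapped only on chromosome 18. The autosomes share the same samples and the same choice by control level, so they are not independent. The mean difference over all 179922 regions was negative too, at -0.899 points, and its values by autosome are not given here.

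The region with the smallest p lay on chromosome 17 from 71011914 to 71012187, with 24 CpGs and 138 to 259 calls. It stood at 65.2% and 61.8% in the AOM/DSS samples, against 83.9% and 96.4% in the control samples, and at 79.6% and 78.8% with curcumin. The curcumin samples lay between the other groups, and the 2 controls were far apart. On chromosome 4, a region from 151499967 to 151500309 with 29 CpGs stood at 73.0% and 57.4% in the AOM/DSS samples, against 87.1% and 86.1% in the control samples, and at 89.0% and 68.9% with curcumin. Another on chromosome 4 from 126989738 to 126990206, also with 29 CpGs, stood at 55.2% and 39.2% in the AOM/DSS samples, against 70.5% and 73.9% in the control samples, and at 44.5% and 70.1% with curcumin. In both chromosome 4 regions the samples of each group given AOM and DSS were far apart while the controls were close together.

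A smaller but tight difference was seen on chromosome 18 from 51162665 to 51163049, with 28 CpGs and 426 to 528 calls. It stood at 94.8% and 94.3% in the AOM/DSS samples and 95.4% and 95.3% in the curcumin samples, against 98.9% and 98.7% in the control samples. All 4 samples given AOM and DSS lay below both controls. The chromosome 11 and chromosome 6 regions that were higher with curcumin (from 118752543 and from 146401063) were again among the 10, at -8.67 and -15.6 points. These comparisons share the AOM/DSS samples. The other 4 regions lower in AOM/DSS differed by -13.0 to -9.10 points.

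Among the 10 that were higher in AOM/DSS, the first had controls far apart. On chromosome 18 from 84184859 to 84185067, with 16 CpGs, the level was 97.3% and 97.6% in the AOM/DSS samples, against 77.5% and 93.8% in the control samples, and 98.8% and 98.2% with curcumin. On chromosome 10 from 79476364 to 79476738, with 25 CpGs, it was 83.5% and 84.4% in the AOM/DSS samples, against 68.8% and 73.6% in the control samples, and 78.3% and 77.1% with curcumin. In the chromosome 10 region 1 control lay under the limit of the rule. The 10 differed by 4.17 to 12.9 points.

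AOM/DSS plus curcumin against control shares samples with both comparisons above and the choice of regions with the second. The mean was 90.4% and 89.9% in the curcumin samples, against 90.8% and 90.6% in the control samples, a difference of -0.558 points, or -0.275 points without curcumin replicate 1 and -0.842 points without curcumin replicate 0. With regions chosen by 1 control sample and set against the other, the difference was -0.209 and -0.536 points. Over all 179922 regions the mean difference was -0.417 points. edgeR called 0 of the regions, and 0 over all regions, with 74 at an unadjusted p under 0.05 against 4.17% of all regions. Limma called 0, and Fisher's test on calls summed by group 6. For Fisher's test the share of all regions called is not given here, so nothing is read from the 6. With the 10-point minimum, 6 were higher and 16 lower with curcumin, against 0.562% and 0.899% of all regions. The groups did not overlap in 186 that were higher and 280 that were lower with curcumin, against 14.3% and 17.7% of all regions. The difference was positive in 679 and negative in 819, against 46.6% and 52.9% of all regions. The chromosome 18 region from 51162665 was lower with curcumin by -3.42 points and the one from 84184859 higher by 12.8 points. Of the other 8 regions named here, the lower 4 differed by -10.7 to -3.54 points and the higher 4 by 4.87 to 15.8 points, the last on chromosome 8 from 48278736 to 48278901, at 28 to 70 calls.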

How the data were processed

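Colon epithelial DNA of 6 samples was enriched by Agilent SureSelectXT Mouse Methyl-Seq capture and bisulfite sequenced, per the labels. Bismark 0.15.0, ChIPseeker 1.10.3 and R 3.4.0 are named with build mm9 in the submitters' processing notes. The sources used here give no settings. The authors deposited counts per region: methylation calls and methylated calls over 209687 regions, with no value present under 20 calls.

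Levels are 100 times methylated over all calls. edgeR 4.0.16 in R 4.3.3 was fitted to all 179922 regions with calls in all 6 samples, with a coverage term per sample, a methylation term per group and 1 shared spread, and p-values were adjusted by Benjamini-Hochberg. limma 3.58.1 used log2 ratios with 0.5 added. Regions were named by the smallest p among those whose groups did not overlap, 10 per direction (5 for curcumin against control). Also named were the longest runs, the regions nearest the limits and those with replicates farthest apart. The sparse regions and the neighbours were set beside the members after values were known. The fit was tested on simulated data with changes of 20 and 40 points, with a spread that was set and not fitted to these data. Of 179922 simulated regions, 100 were lowered by each amount and none were raised. They were drawn from methylated regions of 10 or more CpGs and not from the members alone. After adjustment the fit called 0 to 6 of each 100 changed regions, while 78 to 100 had an edgeR unadjusted p under 0.05. The number called after adjustment also depends on how many regions change, and other numbers were not simulated. In that setting a count of 0 called says little about whether regions differed. Python 3.11.15, numpy 2.4.6 and pandas 2.3.3 gave the means. The members and lists were chosen with earlier results of these data known.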

Additional observations from a re-analysis of the deposited data

How the results depend on the processing

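Calls per region, 2 samples per group and a strict adjustment limit what single regions can show. None of the settings tried reversed a direction. For the number of called regions, Fisher's exact test on summed calls gave 22 for curcumin against AOM/DSS, 36 for AOM/DSS against control and 6 for curcumin against control, in place of 0 each. These Fisher counts are given without the share called over all regions, so nothing is read from them. For AOM/DSS against control the count was 1 with a replicate block, the chromosome 17 region from 71011914 (edgeR adjusted p = 0.0258). Its edgeR adjusted p was 0.136 with all samples, 0.453 with only the 4 samples compared and 0.197 with at least 50 calls. The adjusted p was 0.751 with limma and 7.27e-14 with Fisher's test, in which samples do not vary. The control samples chose this region and it was named for its small p, so nothing is read from these p-values. Without single AOM/DSS or control samples its difference ran from -32.9 to -20.4 points. The labels give no pairing, and same-numbered samples did not deviate together, with correlations across the members of -0.00258, 0.0352 and -0.0258. The block left the other 2 counts at 0. For curcumin against AOM/DSS, 2.00% of all regions passed an unadjusted p under 0.05 and 10 points in edgeR. The share was 1.51% with limma, 4.84% with Fisher's test and 2.05% with the block. Member shares lay below these with limma and Fisher's test, and above them in the main fit and with the block. The 34 members past both limits became 87 with no minimum difference (5.25% of all regions) and 1 with 20 points. They were 15 with limma, 54 with Fisher's test and 36 with the block. Without single samples they were 33 to 44, with 21 higher and 19 lower without curcumin replicate 0 and 27 higher and 6 lower without curcumin replicate 1.

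The mean difference of AOM/DSS against control was -1.57 points with a density limit of 5, and -0.985 points when control replicate 0 alone chose the regions. Without single samples it ran from -1.48 to -1.23 points. For the unmethylated counterparts it was 0.206 points with calls pooled over regions, and 0.219 to 0.329 points without single samples. The mean difference of curcumin against control was -0.209 points when control replicate 0 alone chose the regions. For curcumin against AOM/DSS it ran from 0.513 to 1.08 points over all alternatives. The cause of these shifts was not tested. In the other settings the means moved by less than the spread between replicates.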

Other observations

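Some members differed most between the samples of one group. In AOM/DSS the widest gaps were on chromosome 11 from 116126702 to 116126820 (88.5% and 49.1%), chromosome 2 from 33966108 to 33966298 (52.8% and 88.4%) and chromosome 15 from 80202571 to 80202876 (49.1% and 77.4%). With curcumin they were on chromosome 11 from 19685202 to 19685391 (94.2% and 64.3%), chromosome 2 from 119346710 to 119346807 (80.6% and 51.1%) and chromosome 19 from 45100724 to 45100929 (92.6% and 65.7%). These regions had 10 to 20 CpGs, and the lowest number of calls in any sample ran from 34 to 84.

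A few members outside the naming rule, picked after their values were seen, stood out by density or by calls. The densest lay on chromosome 14 from 61458158 to 61458179, where 10 CpGs sit in 22 bases. It stood at 96.9% and 98.1% in the curcumin samples, 98.6% and 97.5% in the AOM/DSS samples, and 96.7% and 100% in the control samples. The members with the most calls per CpG were on chromosome 4 from 94265991 to 94266164 (84.4 calls per CpG), chromosome 8 from 19876948 to 19877082 (81.05) and chromosome 10 from 57687374 to 57687563 (81.01), against a median of 8.62. At the chromosome 4 region, with 914 to 1229 calls per sample, the level was 86.7% and 87.0% in the curcumin samples, 84.1% and 83.0% in the AOM/DSS samples, and 88.6% and 87.03% in the control samples.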
